A study of Mus musculus with 9 samples.

Results

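The 34 genes described here are the transcription factor gene Atf4 and genes of the amino acid response that ATF4 is known for: its partner and target regulators, enzymes of asparagine, proline and serine synthesis, amino acid transporters and cytosolic aminoacyl-tRNA synthetases. The rule lists them by name and applies no measured value, although the list was drawn up with earlier results of these data known. All 34 were found among the 24493 genes of the deposited table. Expression was measured as TPM, an estimate of transcript abundance that allows for transcript length and is scaled to the same total in each library, in polyadenylated RNA of mouse pancreatic tumor cells. The samples fall into 3 groups of 3: wild type (WT) and 2 groups in which the ubiquitin protease gene Usp22 was targeted, labelled Usp22-KOA and Usp22-KOB. All 9 come from the same tumor cell clone, 6419c5, of C57BL/6 origin, taken from late-stage tumors that grew under the skin after implantation. The sources used here do not give the age of the mice, what separates A from B, how the gene was altered, or how tumor cells were parted from other cells. A difference between Usp22-KOA and Usp22-KOB cannot be told apart from a difference between the cell populations behind the labels. The labels do not say that the 3 samples of a group came from separate mice, and the p-values therefore reflect no more than the spread among these samples, part of which may be technical.

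ATF4 is the effector of the integrated stress response. Kinases that sense uncharged tRNA, unfolded protein, double-stranded RNA or lack of haem phosphorylate the initiation factor eIF2, which lowers translation in general while translation of the Atf4 message rises, so the Atf4 mRNA level does not measure the ATF4 protein. ATF4 binds DNA as a dimer with proteins of the C/EBP family at composite elements and switches on genes that make, import and charge amino acids, and, under lasting stress, genes of feedback and cell death such as Ddit3 and Trib3. In pancreatic cancer the pathway is known for its part in growth when amino acids run short.

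Usp22 itself stood at 55.1, 54.5 and 56.4 TPM across WT, 9.77, 8.46 and 10.1 across Usp22-KOA and 11.8, 14.9 and 14.1 across Usp22-KOB. All 6 knockout samples were below the WT samples, and its level fell by a log2 difference ± SE of -2.44 ± 0.10 for Usp22-KOA and -1.96 ± 0.10 for Usp22-KOB (limma, adjusted p = 1.8e-07 and 2.2e-06). The 10 epithelial markers on a fixed list, none of them at 0, summed to between 8508 and 9043 TPM for WT, 6331 and 7113 TPM for Usp22-KOA and 6976 and 8546 TPM for Usp22-KOB, with 8 of 10 lower in Usp22-KOA and 6 of 10 lower in Usp22-KOB. Markers of other cells were present as well, and several moved with the groups. The 14 macrophage and dendritic cell markers summed to 1934 to 3022 TPM for WT, 1223 to 3068 for Usp22-KOA and 5404 to 9610 for Usp22-KOB, and 12 of the 12 tested were higher in Usp22-KOB than in WT. Among all genes tested, 26.9% were lower in Usp22-KOA, and 18.4% were lower and 18.7% higher in Usp22-KOB. The 8 mast cell markers summed to 149 to 183 TPM for WT, 1197 to 2480 for Usp22-KOA and 94.2 to 124 for Usp22-KOB. In the same order of groups, the 10 fibroblast markers summed to 536 to 961, 193 to 227 and 819.9 to 1257 TPM and the 10 endothelial markers to 49.2 to 66.2, 10.9 to 17.5 and 38.3 to 57.7 TPM. The 13 T and NK cell markers in the table summed to 11.6 to 21.0, 55.1 to 121 and 29.1 to 76.7 TPM, and the 8 neutrophil markers to 649 to 699, 603 to 1536 and 157 to 517 TPM. The 8 pancreatic acinar markers, of which Cela2a and Try4 were listed at 0 in every library, summed to 43.5 to 52.7, 87.5 to 98.7 and 8.004 to 9.495 TPM. In such bulk samples fewer cells of a type and less RNA per cell cannot be told apart, and the part of these cells in the differences below was not tested.

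The 34 genes were tested together with all others that reached a mean of 1 TPM, 13843 genes in all, and all 34 passed that filter. Each difference is printed with its SE, on the scale log2(TPM + 1), from 1 limma fit over the 9 samples, and calls were made at an adjusted p (Benjamini-Hochberg, over every gene tested) under 0.05. In Usp22-KOA against WT 16 of the 34 genes rose and 10 fell, where 29.4% of all tested genes rose and 26.9% fell. Those 16 and 10 are 47.1% and 29.4% of the 34. In Usp22-KOB against WT 8 rose and 7 fell (23.5% and 20.6%), against 18.7% and 18.4% of all genes tested. For the mean of both knockouts against WT the counts were 18 and 10 (52.9% and 29.4%), against 25.9% and 24.1% of all genes. The shares that fell, and both shares in Usp22-KOB, lay within 6 percentage points of those of all genes in this fit, which is near the background. The count that rose in Usp22-KOB depended on the scaling: quantile normalization and median-of-ratios scaling each gave 11 that rose and 6 that fell (32.4% and 17.6%), against 20.9% and 21.5% of all genes with the first and 21.3% and 20% with the second. The median difference of the 34 genes came to 0.21 for Usp22-KOA, 0.11 for Usp22-KOB and 0.19 in the mean of both, beside 0.019, -0.0075 and 0.0087 for all genes tested. The 34 genes were also measured with a smaller spread than most: their median coefficient of variation between the 3 samples of a group was 4.68% for WT, 7.87% for Usp22-KOA and 5.83% for Usp22-KOB, against 7.64%, 8.72% and 10.2% over all genes tested, and the part of this in the counts was not tested. With the 6 knockout samples taken as 1 group, so that their own differences count as spread, 7 genes rose and 3 fell (20.6% and 8.82%) in place of 18 and 10, against 10.4% and 10.9% of all genes in that fit.

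**Figure D1:**
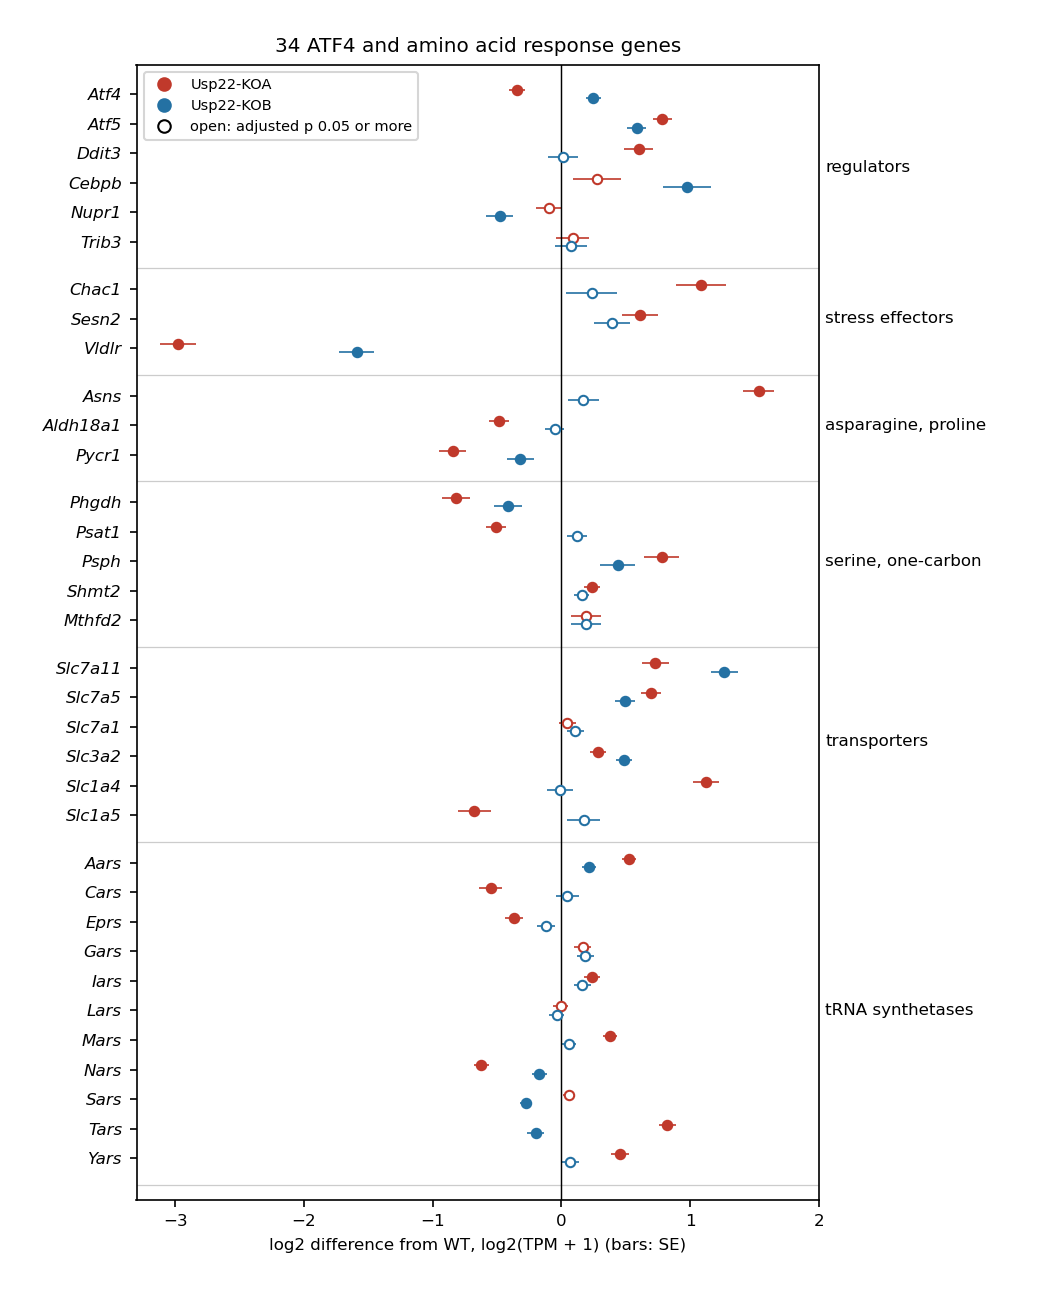
Log2 differences from WT (x axis, log2(TPM + 1), bars are SE) of the 34 genes, grouped by role, in Usp22-KOA (red) and Usp22-KOB (blue), n = 3 per group, with open points where the adjusted p was 0.05 or more. Asns, Slc1a4, Chac1 and Tars lie furthest right in Usp22-KOA, where in Usp22-KOB the first 3 were not called and Tars was lower than WT, Slc7a11 lies to the right in both, and Vldlr lies to the left in both.

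The promoters of these genes are shown first, because part of them carry the letters that ATF4 and C/EBP dimers are known to bind. The letters searched were TGATGNAA (N is any base) on both strands, in windows from 250 bases before to 50 bases after each annotated start. RefSeq windows of build GRCm38.p6 were matched by symbol for 28 of the 34 genes. The letters were found in 13 of these 28 (46.4%), against 313 of 10507 tested genes with a window (2.98%) and 3.97% of all 32851 windows. The 34 genes were listed for a response that ATF4 is known for, so this higher share may follow from the choice of the list. A second set of letters, TGACGTCA, the cAMP response element, was found in 0 of the 28 and in 3.51% of the tested genes with a window, so no match of the first kind overlapped one of the second in these genes. Of the 13 genes with TGATGNAA, 8 rose in Usp22-KOA (Chac1, Asns, Slc7a11, Slc1a4, Aars, Iars, Tars and Yars), 2 fell (Vldlr and Pycr1) and 3 were not called (Gars, Nupr1 and Trib3). Of the 15 without the letters in their windows, 6 rose and 5 fell. Sequence outside the windows was not searched, so these 15 may carry the letters elsewhere. In Usp22-KOB 2 of the 13 rose (Slc7a11 and Aars) and 4 fell (Nupr1, Vldlr, Pycr1 and Tars), and of the 15 without the letters 5 rose and 2 fell. Over all genes tested, 29.4% rose and 26.9% fell in the first knockout, and 18.7% rose and 18.4% fell in the second. A match is a description of the letters in the window and not a bound site, and genes with it stood on both sides of WT.

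8 of the matches are printed 5′ to 3′ on the gene's own strand, with the searched letters, or their reverse complement, in capitals. Asns, Slc1a4, Chac1 and Tars are shown because they differed most from WT among those that rose in Usp22-KOA, Slc7a11 because it rose in both knockouts, Vldlr and Pycr1 because they fell with the same letters in place, and Trib3 because it was not called. Slc7a11 has the letters 2 times within the stretch, in both directions. The stretches lie at chr6:7693214-7693243 (minus strand) for Asns, chr11:20332699-20332728 (minus strand) for Slc1a4, chr2:119351038-119351067 (plus strand) for Chac1, chr15:11399655-11399684 (minus strand) for Tars, chr3:50443633-50443699 (minus strand) for Slc7a11, chr19:27216809-27216838 (plus strand) for Vldlr, chr11:120643833-120643862 (minus strand) for Pycr1 and chr2:152344028-152344057 (minus strand) for Trib3, all in GRCm38.p6.
Asns: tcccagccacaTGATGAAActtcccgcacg
Slc1a4: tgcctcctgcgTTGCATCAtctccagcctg
Chac1: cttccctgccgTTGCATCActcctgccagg
Tars: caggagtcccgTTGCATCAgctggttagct
Slc7a11: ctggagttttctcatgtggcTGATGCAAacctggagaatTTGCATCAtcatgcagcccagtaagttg
Vldlr: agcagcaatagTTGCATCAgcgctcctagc
Pycr1: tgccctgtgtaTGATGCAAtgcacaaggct
Trib3: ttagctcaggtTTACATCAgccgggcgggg

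Of the genes for the 4 eIF2 kinases, 1 rose and 1 fell in Usp22-KOA, and 1 rose and 1 fell in Usp22-KOB. Eif2ak4 encodes GCN2, the kinase that senses uncharged tRNA, and it stood at 9.44 ± 0.988 TPM (mean ± SD, n = 3) for WT, 6.58 ± 0.281 for Usp22-KOA and 7.86 ± 0.453 for Usp22-KOB. It fell in Usp22-KOA (-0.46 ± 0.09, adjusted p = 0.00254) and was not called in Usp22-KOB (-0.23 ± 0.09, adjusted p = 0.0786). Eif2ak1, the haem-regulated kinase, rose in both, by 0.26 ± 0.05 and 0.22 ± 0.05 (adjusted p = 0.00297 and 0.0117). Eif2ak3, the kinase PERK of the endoplasmic reticulum, fell in Usp22-KOB (-0.31 ± 0.10, adjusted p = 0.038) and was not called in Usp22-KOA (-0.14 ± 0.10, adjusted p = 0.272), nor were the knockouts called apart (0.17 ± 0.10, adjusted p = 0.179). The interferon-induced kinase Eif2ak2 (PKR) was not called in either (0.32 ± 0.12, adjusted p = 0.0507 in Usp22-KOA and 0.12 ± 0.12, adjusted p = 0.456 in Usp22-KOB). Ppp1r15a, the ATF4-induced subunit that directs a phosphatase to eIF2 and so restores translation, was not called against WT in either (0.22 ± 0.11 and -0.092 ± 0.11, adjusted p = 0.104 and 0.537). It was higher in Usp22-KOA than in Usp22-KOB (0.32 ± 0.11, adjusted p = 0.034). In the list of 17 genes of eIF2, its kinases, exchange factor and regulators, 9 rose and 3 fell in Usp22-KOA and 4 rose and 2 fell in Usp22-KOB. These are 52.9% and 17.65% in Usp22-KOA, where 29.4% of all genes tested rose and 26.9% fell. In Usp22-KOB they are 23.5% and 11.8%, where 18.7% of all genes tested rose and 18.4% fell. The median difference was 0.22 and -0.031, beside 0.019 and -0.0075 over all genes. A pair of GCN2 regulators, named after their values were seen, differed most in size between the knockouts among these 17. Impact, an inhibitor of GCN2 activation, stood at 20.4, 18.5 and 16.1 TPM across WT, 44.2, 44.8 and 56.8 across Usp22-KOA and 18.6, 20.1 and 21.1 across Usp22-KOB, and the Usp22-KOA samples lay above all others (1.36 ± 0.12, adjusted p = 1.3e-05 against WT and 1.24 ± 0.12, adjusted p = 3.8e-05 against Usp22-KOB). Gcn1l1, the ribosome-bound activator of GCN2, stood at 27.0 ± 0.800 TPM (mean ± SD, n = 3) for WT, 38.2 ± 0.758 for Usp22-KOA and 18.4 ± 1.79 for Usp22-KOB. It rose in Usp22-KOA (0.49 ± 0.07, adjusted p = 4.2e-04) and fell in Usp22-KOB (-0.53 ± 0.07, adjusted p = 7.0e-04).

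In the GENCODE M21 annotation (GRCm38) Atf4 lies at chr15:80255184-80257541 on the plus strand. Among the 6 regulators, Atf4 stood at 149, 135 and 144 TPM across WT, 116, 117 and 104 across Usp22-KOA and 168, 176 and 164 across Usp22-KOB. The 3 groups did not overlap, with Usp22-KOA lowest and Usp22-KOB highest. Atf4 fell in Usp22-KOA (-0.34 ± 0.06, adjusted p = 0.00118) and rose in Usp22-KOB (0.25 ± 0.06, adjusted p = 0.0124), and the knockouts differed by -0.59 ± 0.06 (adjusted p = 6.8e-05). The call in Usp22-KOB ended without Usp22-KOB 2 (adjusted p = 0.0515). Atf5, a related factor that is also held under translational control, stood at 55.9, 57.7 and 61.6 TPM across WT, 107, 104 and 93.5 across Usp22-KOA and 93.4, 80.6 and 90.4 across Usp22-KOB. Every knockout sample lay above every WT sample, and Atf5 rose in both, by 0.78 ± 0.07 in Usp22-KOA and 0.58 ± 0.07 in Usp22-KOB (adjusted p = 2.5e-05 and 4.9e-04). Ddit3 encodes CHOP, the factor that ATF4 induces under lasting stress, and it stood at 35.8, 40.3 and 43.7 TPM across WT, 68.5, 61.5 and 53.5 across Usp22-KOA and 45.2, 39.2 and 36.5 across Usp22-KOB. It was higher in each Usp22-KOA sample than in any other, while WT and Usp22-KOB overlapped. It rose in Usp22-KOA (0.60 ± 0.11, adjusted p = 0.00171) and was not called in Usp22-KOB (0.012 ± 0.11, adjusted p = 0.945), and the knockouts differed (0.59 ± 0.11, adjusted p = 0.00244).

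Cebpb, a partner of ATF4 that macrophages and neutrophils also express, rose in 1 knockout. It stood at 121, 141 and 127 TPM across WT, 192, 163 and 123 across Usp22-KOA and 297, 285 and 196 across Usp22-KOB. The Usp22-KOB samples lay above all others, whereas Usp22-KOA overlapped WT. Cebpb rose in Usp22-KOB (0.97 ± 0.19, adjusted p = 0.00382) and was not called in Usp22-KOA (0.27 ± 0.19, adjusted p = 0.239). The sums of the macrophage and dendritic cell markers in the same order of samples were 1934, 3022 and 2014 TPM for WT, 3068, 2573 and 1223 TPM for Usp22-KOA and 9610, 9421 and 5404 TPM for Usp22-KOB. In each group the sample with the most Cebpb was also the one with the highest marker sum, and in both knockouts the sample numbered 3 was lowest for each. Their part in the level of Cebpb was not tested. Nupr1, a small stress-induced chromatin protein, had the highest level per transcript length of the 34 genes in WT and stood at 501, 469 and 640.5 TPM across WT, 516, 498 and 476 across Usp22-KOA and 384, 368 and 391 across Usp22-KOB. It fell in Usp22-KOB (-0.48 ± 0.10, adjusted p = 0.0061), whose samples lay below all others, and was not called in Usp22-KOA (-0.10 ± 0.10, adjusted p = 0.428). Trib3, a pseudokinase induced by ATF4 and CHOP that feeds back on both, did not pass in any comparison. It stood at 11.9 ± 1.34 TPM (mean ± SD, n = 3) for WT, 12.8 ± 2.13 for Usp22-KOA and 12.5 ± 0.671 for Usp22-KOB, with differences of 0.088 ± 0.13 and 0.074 ± 0.13 from WT (adjusted p = 0.579 and 0.682). Ddit3 and Mars overlap on opposite strands in the GENCODE M21 annotation, as do Cebpb and Tmem189, Atf5 and Nup62, Psph and Cct6a, Yars and C77080, and Shmt2 and Ndufa4l2, and Aars overlaps Exosc6 on its own strand. The sources used here do not say whether strand was used in quantification, so the values of these genes are less certain.

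**Figure D2:**
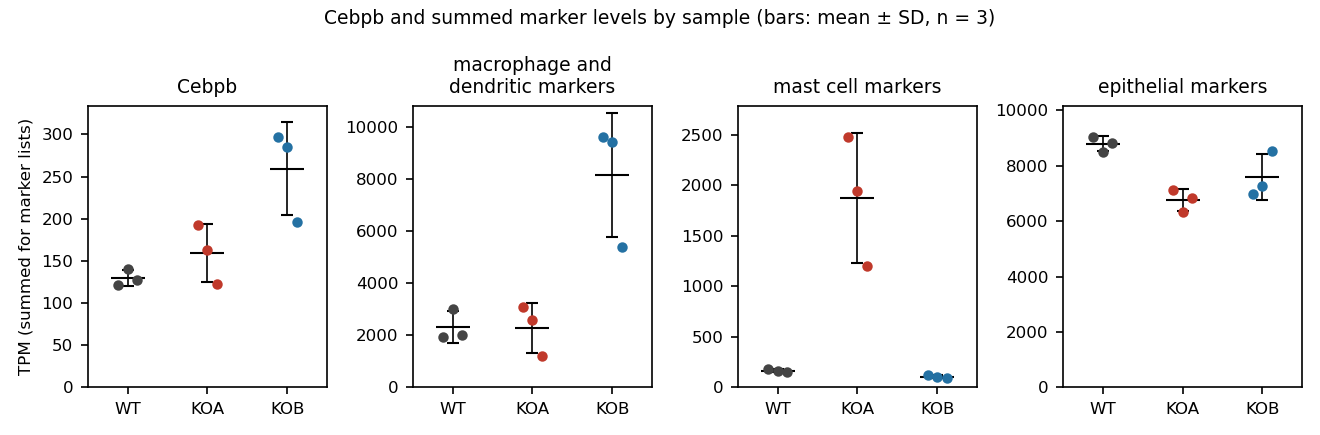
Level of Cebpb and summed levels of 3 marker lists (y axis, TPM) in each sample of WT, Usp22-KOA (KOA) and Usp22-KOB (KOB), points are samples and bars are mean ± SD (n = 3). Cebpb and the macrophage and dendritic cell markers are both highest in the 3 Usp22-KOB samples, mast cell markers are highest in the 3 Usp22-KOA samples, and epithelial markers range from 6331 to 9043 TPM over the libraries.

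Of the 3 stress effectors, Chac1 and Sesn2 rose in Usp22-KOA and Vldlr fell in both knockouts. Chac1, an enzyme that breaks down glutathione, had the lowest level of the 34 genes in WT and stood at 1.86, 2.99 and 3.81 TPM across WT, 7.96, 7.34 and 6.03 across Usp22-KOA and 4.003, 2.95 and 3.53 across Usp22-KOB. The Usp22-KOA samples lay above all others, WT and Usp22-KOB overlapped, and Chac1 rose in Usp22-KOA (1.09 ± 0.20, adjusted p = 0.00126) but was not called in Usp22-KOB (0.23 ± 0.20, adjusted p = 0.382). With a pseudocount of 5 in place of 1 the difference in Usp22-KOA was 0.62, and that of Sesn2 was 0.41. Sesn2, which restrains the growth kinase mTORC1 when leucine is short, stood at 5.22, 5.60 and 5.45 TPM across WT, 9.98, 8.72 and 7.80 across Usp22-KOA and 8.97, 7.67 and 5.95 across Usp22-KOB. All knockout samples lay above WT, and Sesn2 passed in Usp22-KOA (0.61 ± 0.14, adjusted p = 0.00494) and not in Usp22-KOB (0.39 ± 0.14, adjusted p = 0.0538). In Usp22-KOB it passed without Usp22-KOB 3 (adjusted p = 0.00888) and with a replicate block (0.0439). The knockouts were not called apart (0.22 ± 0.14, adjusted p = 0.229). Vldlr, a lipoprotein receptor that ATF4 induces under stress, stood at 9.34, 8.33 and 9.25 TPM across WT, 0.353, 0.221 and 0.231 across Usp22-KOA and 1.80, 2.68 and 2.51 across Usp22-KOB. The 3 groups did not overlap, and the Usp22-KOA mean was 2.99% of the WT mean and the Usp22-KOB mean 25.96%. Vldlr fell by a log2 difference of -2.98 ± 0.14 in the first and -1.59 ± 0.14 in the second (adjusted p = 4.2e-07 and 5.7e-05), the largest in size of the 34 genes in each of these comparisons. As its knockout levels are low, its size depends on the pseudocount: with 0.1 the difference in Usp22-KOA was -4.64, and with 5 the values became -1.41 for Usp22-KOA and -0.93 for Usp22-KOB.

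**Figure D3:**
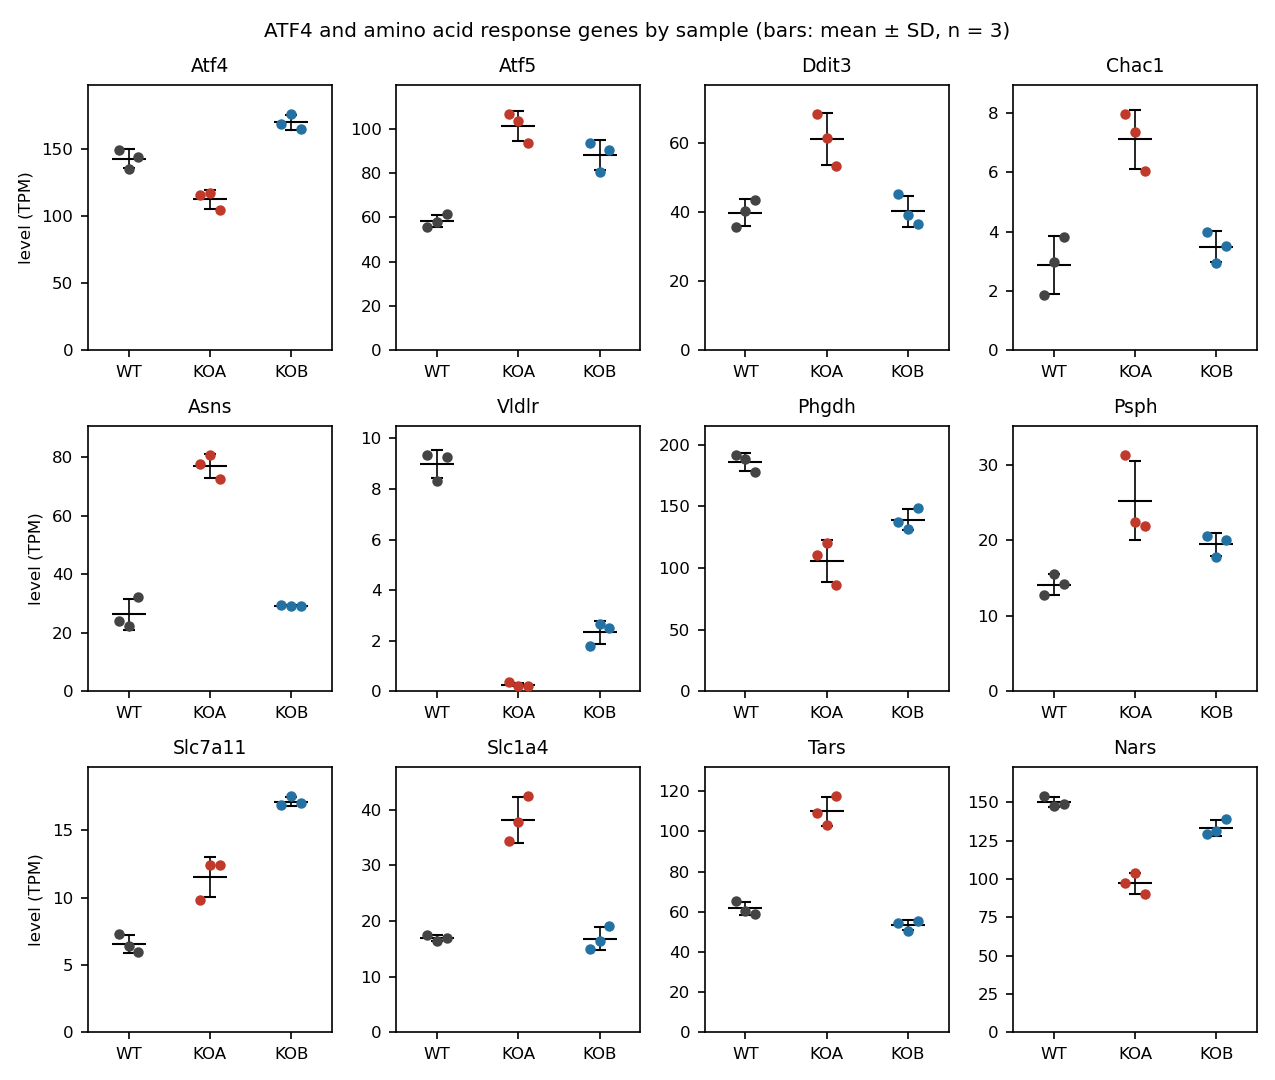
Levels (y axis, TPM) of 12 of the 34 genes in each sample of WT, Usp22-KOA (KOA) and Usp22-KOB (KOB), points are samples and bars are mean ± SD (n = 3). Asns, Chac1, Ddit3, Slc1a4 and Tars stand highest in the 3 Usp22-KOA samples, Slc7a11 and Atf4 in the 3 Usp22-KOB samples, and Vldlr, Phgdh and Nars stand lower in all 6 knockout samples than in WT.

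In Usp22-KOA the gene for asparagine synthesis rose and those for proline synthesis fell. Asns, asparagine synthetase and the best known target of the amino acid response, stood at 24.0, 22.4 and 32.3 TPM across WT, 77.4, 80.6 and 72.5 across Usp22-KOA and 29.6, 29.1 and 29.2 across Usp22-KOB. The 3 Usp22-KOA samples lay far above the other 6, which overlapped between WT and Usp22-KOB. Asns rose in Usp22-KOA (1.53 ± 0.12, adjusted p = 7.2e-06), the largest rise of the 34 genes there, to 293% of the WT mean. It was not called in Usp22-KOB (0.17 ± 0.12, adjusted p = 0.292), where it passed without WT 3 (0.0104), and the knockouts differed by 1.36 ± 0.12 (adjusted p = 2.4e-05). Aldh18a1, which makes the precursor pyrroline-5-carboxylate from glutamate, stood at 27.6 ± 0.442 TPM (mean ± SD, n = 3) for WT, 19.5 ± 1.58 for Usp22-KOA and 26.6 ± 1.70 for Usp22-KOB and fell in Usp22-KOA (-0.48 ± 0.08, adjusted p = 5.3e-04) but was not called in Usp22-KOB (-0.052 ± 0.08, adjusted p = 0.622). Pycr1, which reduces that precursor to proline, stood at 11.9, 10.3 and 9.85 TPM across WT, 5.14, 5.65 and 5.64 across Usp22-KOA and 7.26, 9.09 and 8.77 across Usp22-KOB. Its groups did not overlap, and it fell in Usp22-KOA (-0.85 ± 0.11, adjusted p = 1.5e-04) and in Usp22-KOB (-0.32 ± 0.11, adjusted p = 0.0445), the latter call ending without any of WT 1, WT 2, WT 3, Usp22-KOB 1 or Usp22-KOB 2 (adjusted p = 0.0541 to 0.152).

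In the serine pathway the entry enzyme fell and the last enzyme rose. Phgdh, which commits a glycolytic intermediate to serine, stood at 192, 189 and 178 TPM across WT, 111, 120.0 and 86.5 across Usp22-KOA and 138, 132 and 149 across Usp22-KOB. Every knockout sample lay below WT, and Usp22-KOA lay below Usp22-KOB. Phgdh fell in Usp22-KOA (-0.82 ± 0.11, adjusted p = 1.9e-04) and in Usp22-KOB (-0.42 ± 0.11, adjusted p = 0.016), where the call ended without WT 1 or Usp22-KOB 2 (0.0551 to 0.0591). Psat1, the aminotransferase of the next step, stood at 51.9 ± 1.40 TPM (mean ± SD, n = 3) for WT, 36.3 ± 3.29 for Usp22-KOA and 56.7 ± 4.17 for Usp22-KOB and fell in Usp22-KOA (-0.51 ± 0.08, adjusted p = 5.2e-04). It was not called in Usp22-KOB (0.12 ± 0.08, adjusted p = 0.257). Psph, the phosphatase that releases serine, stood at 12.7, 15.5 and 14.2 TPM across WT, 31.3, 22.5 and 21.9 across Usp22-KOA and 20.6, 17.7 and 20.1 across Usp22-KOB. It was higher in each knockout sample than in any WT sample, and it rose in Usp22-KOA (0.78 ± 0.14, adjusted p = 0.00107) and in Usp22-KOB (0.44 ± 0.14, adjusted p = 0.0333), where the call ended without WT 1, WT 3, Usp22-KOB 1 or Usp22-KOB 3 (0.0725 to 0.111). The mitochondrial enzymes that take serine on to glycine and folate-bound carbon differed less. Shmt2, which splits serine into glycine, stood at 50.5 ± 1.84 TPM (mean ± SD, n = 3) for WT, 59.8 ± 2.69 for Usp22-KOA and 56.4 ± 3.13 for Usp22-KOB and rose in Usp22-KOA (0.24 ± 0.06, adjusted p = 0.00823), a call that ended with quantile normalization (0.12, adjusted p = 0.0602). In Usp22-KOB Shmt2 was not called (0.16 ± 0.06, adjusted p = 0.0726), but passed with quantile normalization and median-of-ratios scaling (0.0494 and 0.0263). Mthfd2, the next enzyme, was not called in either knockout (0.19 ± 0.12 and 0.19 ± 0.12, adjusted p = 0.201 and 0.235), but passed in Usp22-KOA without Usp22-KOA 3 (0.31, 0.0265).

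Of the 6 transporters, 4 rose and 1 fell in Usp22-KOA, where 29.4% of all genes rose and 26.9% fell, and 3 rose in Usp22-KOB, where 18.7% of all genes did. Slc7a11, the cystine importer, stood at 7.30, 6.42 and 5.98 TPM across WT, 9.85, 12.4 and 12.4 across Usp22-KOA and 16.9, 17.6 and 17.0 across Usp22-KOB. The groups did not overlap, with Usp22-KOB highest. Slc7a11 rose by 0.73 ± 0.11 in Usp22-KOA and by 1.26 ± 0.11 in Usp22-KOB (adjusted p = 3.4e-04 and 4.5e-05), the largest rise among the 34 genes in Usp22-KOB. Slc7a5, the large neutral amino acid transporter that imports leucine, stood at 39.3, 38.8 and 38.8 TPM across WT, 64.9, 71.1 and 56.3 across Usp22-KOA and 54.2, 55.0 and 56.3 across Usp22-KOB. All knockout samples lay above WT while the knockouts overlapped, and it rose by 0.70 ± 0.08 and 0.49 ± 0.08 (adjusted p = 7.0e-05 and 0.00153). Slc3a2, the heavy chain that both of these carriers need at the membrane, stood at 92.3, 94.8 and 89.4 TPM across WT, 121, 112 and 104 across Usp22-KOA and 132, 131 and 124 across Usp22-KOB. It was higher in every knockout sample than in WT and rose by 0.28 ± 0.06 and 0.48 ± 0.06 (adjusted p = 0.00365 and 4.9e-04). On the TPM scale, which is per transcript length, the level of Slc7a11 relative to Slc3a2 was 0.0713 ± 0.00678 for WT, 0.104 ± 0.0200 for Usp22-KOA and 0.133 ± 0.00493 for Usp22-KOB, and that of Slc7a5 relative to Slc3a2 was 0.423 ± 0.0122, 0.569 ± 0.0544 and 0.428 ± 0.0226 (ratio of levels, mean ± SD, n = 3).

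The neutral amino acid exchangers Slc1a4 and Slc1a5 moved in opposite directions in Usp22-KOA. Slc1a4, which carries alanine, serine and cysteine, stood at 17.4, 16.5 and 16.9 TPM across WT, 34.3, 37.8 and 42.5 across Usp22-KOA and 15.03, 16.5 and 19.1 across Usp22-KOB. The 3 Usp22-KOA samples lay above all others, and WT and Usp22-KOB overlapped (1.12 ± 0.10, adjusted p = 1.8e-05 in Usp22-KOA and -0.013 ± 0.10, adjusted p = 0.934 in Usp22-KOB). Slc1a5, which also carries glutamine, stood at 33.95, 34.9 and 29.6 TPM across WT, 22.9, 21.6 and 16.4 across Usp22-KOA and 41.0, 34.8 and 35.5 across Usp22-KOB. It was lowest in the 3 Usp22-KOA samples, where it fell (-0.68 ± 0.13, adjusted p = 0.0016), and was not called in Usp22-KOB (0.17 ± 0.13, adjusted p = 0.319). Slc7a1, the cationic amino acid transporter for arginine and lysine, did not pass in any comparison, at 29.0 ± 0.783 TPM (mean ± SD, n = 3) for WT, 29.9 ± 1.54 for Usp22-KOA and 31.3 ± 1.95 for Usp22-KOB.

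The 11 listed tRNA synthetases were called in both directions. In Usp22-KOA 5 rose (Aars, Iars, Mars, Tars and Yars) and 3 fell (Cars, Eprs and Nars). These are 45.5% and 27.3% of the 11, against 29.4% and 26.9% of all genes tested. In Usp22-KOB 1 rose (Aars) and 3 fell (Nars, Sars and Tars), or 9.09% and 27.3%, against 18.7% and 18.4% of all genes tested. Their median difference was 0.16 and 0.047, beside 0.019 and -0.0075 for all genes, and their summed level was 677 ± 10.6 TPM for WT, 714 ± 14.7 for Usp22-KOA and 661 ± 25.9 for Usp22-KOB. Tars, which charges threonine, stood at 65.5, 60.5 and 59.1 TPM across WT, 109, 103 and 118 across Usp22-KOA and 54.5, 50.6 and 55.4 across Usp22-KOB. Usp22-KOA lay above WT and Usp22-KOB below it, with no overlap. Tars rose in Usp22-KOA (0.82 ± 0.07, adjusted p = 1.0e-05) and fell in Usp22-KOB (-0.20 ± 0.07, adjusted p = 0.0431), and the knockouts differed by 1.02 ± 0.07 (adjusted p = 4.8e-06). Nars, which charges asparagine, stood at 154, 147 and 149 TPM across WT, 97.4, 104 and 90.5 across Usp22-KOA and 129.5, 131 and 139 across Usp22-KOB. All knockout samples lay below WT, in Usp22-KOA the most, with -0.62 ± 0.06, adjusted p = 2.4e-05 there and -0.17 ± 0.06, adjusted p = 0.0481 in Usp22-KOB. The falls in Usp22-KOB were small: those of Tars and Nars ended without any of WT 1, WT 2, WT 3, Usp22-KOB 1 or Usp22-KOB 2 (adjusted p = 0.0553 to 0.148 for Tars and 0.0817 to 0.143 for Nars), and that of Nars ended with either scaling too (0.0514 with quantile normalization and 0.0561 with median-of-ratios). With only the groups compared the falls of Tars and Pycr1 ended (0.0549 and 0.0723), without a filter those of Nars and Pycr1 (0.0524 and 0.0733) and the rise of Psph (0.0504), and without a trend those of Tars and Nars (0.0681 and 0.0860). With each sample left out in turn between 3 and 8 of the 34 genes fell in Usp22-KOB in place of 7. Of all genes, 13.1% to 22.2% fell there in those fits, in place of 18.4%. Per transcript length, the level of Asns relative to Nars was 0.175 ± 0.0365 for WT, 0.791 ± 0.0137 for Usp22-KOA and 0.220 ± 0.00915 for Usp22-KOB (ratio of levels, mean ± SD, n = 3).

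Aars, for alanine, stood at 57.3, 63.0 and 60.6 TPM across WT, 88.4, 88.9 and 84.2 across Usp22-KOA and 68.8, 68.2 and 73.3 across Usp22-KOB. Every knockout sample lay above WT, and it rose by 0.53 ± 0.05 in Usp22-KOA and by 0.21 ± 0.05 in Usp22-KOB (adjusted p = 4.5e-05 and 0.0148), the latter call ending without WT 1 (0.0608). Yars (tyrosine), Mars (methionine) and Iars (isoleucine) rose in Usp22-KOA by 0.46 ± 0.07, 0.37 ± 0.05 and 0.24 ± 0.07 (adjusted p = 4.9e-04, 3.3e-04 and 0.013), and none of these 3 was called in Usp22-KOB (0.067, 0.055 and 0.16), though Iars passed there with quantile normalization and median-of-ratios scaling (0.0345 and 0.0145). Cars (cysteine) and Eprs, the fused enzyme for glutamate and proline, fell in Usp22-KOA by 0.55 and 0.37 on the log2 scale (adjusted p = 7.4e-04 and 0.00188), and were not called in Usp22-KOB (0.047 ± 0.09 and -0.12 ± 0.07). Eprs passed there without Usp22-KOB 3 (0.0365). Sars (serine) fell in Usp22-KOB (-0.28 ± 0.05, adjusted p = 0.00184), where its 3 samples lay below all others, and was not called in Usp22-KOA (0.061 ± 0.05, adjusted p = 0.288). Gars (glycine) was not called in either (0.16 ± 0.07 and 0.18 ± 0.07, adjusted p = 0.0587 and 0.0548), though it passed in Usp22-KOA without Usp22-KOA 3 (0.00558). In Usp22-KOB Gars passed with quantile normalization, with median-of-ratios scaling and with only the groups compared (adjusted p = 0.0329, 0.0390 and 0.0329). Lars (leucine) stood at 45.7 ± 2.08 TPM (mean ± SD, n = 3) for WT, 45.5 ± 1.54 for Usp22-KOA and 44.5 ± 2.08 for Usp22-KOB and its groups overlapped in all 3 pairs, with a difference in Usp22-KOA of -0.0065 ± 0.06, adjusted p = 0.935. With quantile normalization it was called lower there (-0.12, adjusted p = 0.0479).

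The 9 cytosolic synthetases outside the 34 genes were read beside them. In Usp22-KOA 2 rose and 2 fell (22.2% each), where 29.4% of all genes tested rose and 26.9% fell. In Usp22-KOB 1 rose and 0 fell by limma's adjusted p, with 0 lower at an unadjusted p under 0.05. By adjusted p, 18.7% of all genes tested rose there and 18.4% fell. Wars and Vars were picked from these 9 for a small adjusted p in these data. Wars, for tryptophan, which interferon gamma is known to induce, stood at 57.3, 54.4 and 53.1 TPM across WT, 131, 123 and 147 across Usp22-KOA and 82.5, 79.9 and 90.0 across Usp22-KOB. Its groups did not overlap, and it rose by 1.27 ± 0.07 in Usp22-KOA and 0.61 ± 0.07 in Usp22-KOB (adjusted p = 1.4e-06 and 3.9e-04), by more than any of the 11 listed synthetases in each knockout. Vars, for valine, rose in Usp22-KOA (0.56 ± 0.06, adjusted p = 4.7e-05). Of the 17 mitochondrial synthetases 3 rose and 6 fell in Usp22-KOA (17.65% and 35.3%), against 29.4% and 26.9% of all genes tested. In Usp22-KOB 1 rose and 2 fell (5.88% and 11.8%), against 18.7% and 18.4%. The medians of the 17 were -0.15 and -0.048. Of the 3 scaffold genes of the synthetase complex, 2 rose and 1 fell in Usp22-KOA (66.7% and 33.3%), against 29.4% and 26.9% of all genes. In Usp22-KOB 1 of the 3 rose and 1 fell (33.3% each), against 18.7% and 18.4%.

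**Figure D4:**
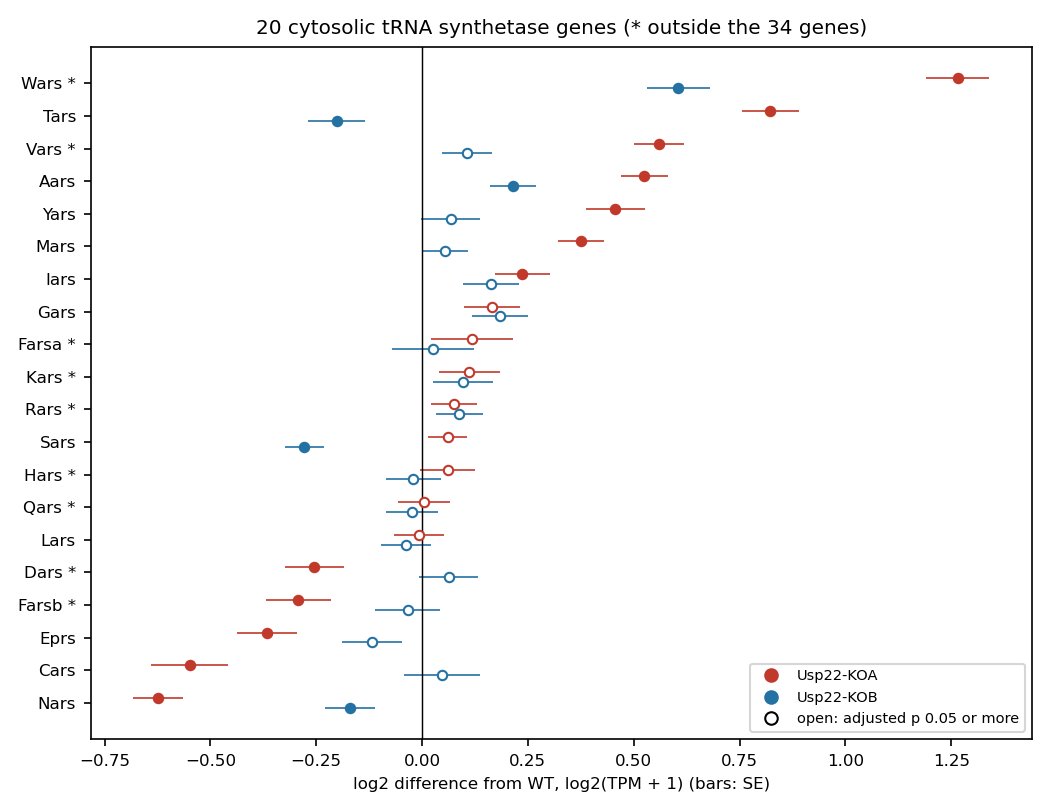
Log2 differences from WT (x axis, log2(TPM + 1), bars are SE) of 20 cytosolic tRNA synthetase genes in Usp22-KOA (red) and Usp22-KOB (blue), n = 3 per group, with an asterisk at the 9 outside the 34 genes and open points where the adjusted p was 0.05 or more. Wars lies furthest right in both knockouts, and Nars, Cars and Eprs lie furthest left in Usp22-KOA.

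A further 30 genes tied to ATF4 were read from a list, of which 28 reached the filter. In Usp22-KOA 14 rose and 7 fell, and in Usp22-KOB 12 rose and 6 fell, with medians of 0.24 and 0.17. The shares were 50% and 25% in Usp22-KOA, against 29.4% and 26.9% of all genes tested. They were 42.9% and 21.4% in Usp22-KOB, against 18.7% and 18.4%, so the shares that fell were near the background. The single genes below were picked from this list for a small adjusted p in these data, so their small p-values follow from that choice. Gdf15, a stress cytokine, stood at 8.17, 7.55 and 8.10 TPM across WT, 51.7, 52.7 and 42.8 across Usp22-KOA and 23.5, 20.4 and 18.2 across Usp22-KOB. The groups did not overlap, and it rose by 2.48 ± 0.11 in Usp22-KOA and 1.27 ± 0.11 in Usp22-KOB (adjusted p = 3.0e-07 and 5.1e-05). Jdp2, a bZIP factor, rose from 11.1 ± 0.808 TPM in WT to 29.6 ± 2.33 and 25.6 ± 3.13. Eif4ebp1, an inhibitor of cap-dependent translation, and the autophagy receptor Sqstm1 rose in both knockouts, by 0.59 ± 0.05 and 0.75 ± 0.04 in Usp22-KOA and by 0.38 ± 0.05 and 0.46 ± 0.04 in Usp22-KOB. Vegfa, which hypoxia also drives, fell in both (-1.35 ± 0.09 and -0.96 ± 0.09). The highest of limma's adjusted p over Jdp2, Eif4ebp1, Sqstm1 and Vegfa in both knockouts was 4.7e-04. Stc2, a secreted glycoprotein, stood at 32.4, 35.1 and 32.5 TPM across WT, 45.8, 43.7 and 48.1 across Usp22-KOA and 14.2, 13.8 and 16.2 across Usp22-KOB. It rose in Usp22-KOA (0.45 ± 0.07, adjusted p = 8.1e-04) and fell in Usp22-KOB (-1.13 ± 0.07, adjusted p = 1.2e-05). Slc38a2, a glutamine and alanine carrier, fell in Usp22-KOA (-0.76 ± 0.08, adjusted p = 5.3e-05) and was not called in Usp22-KOB (0.22 ± 0.08, adjusted p = 0.0643). Map1lc3b, an autophagosome protein, rose in Usp22-KOA (0.83 ± 0.05, adjusted p = 1.2e-06) and was not called in Usp22-KOB (0.089 ± 0.05, adjusted p = 0.172).

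**Figure D5:**
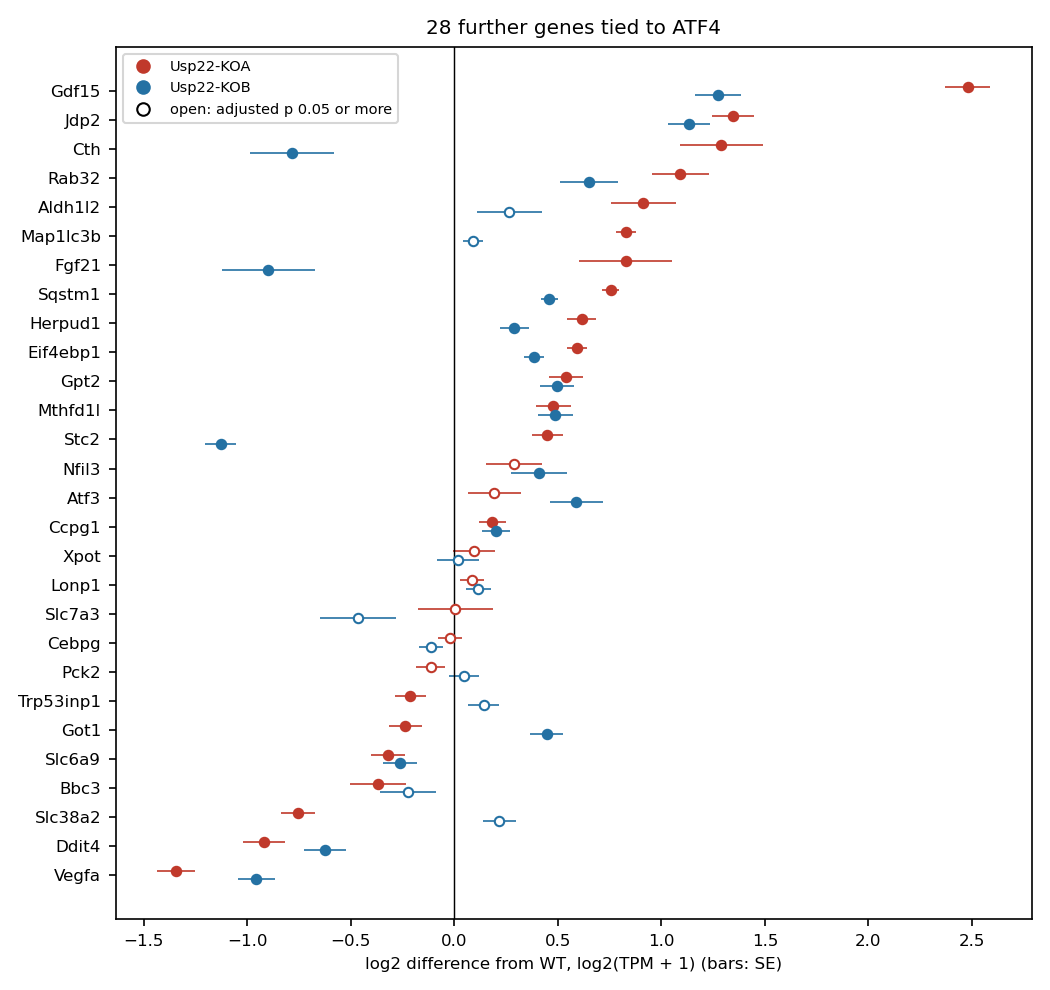
Log2 differences from WT (x axis, log2(TPM + 1), bars are SE) of the 28 tested further genes tied to ATF4 in Usp22-KOA (red) and Usp22-KOB (blue), n = 3 per group, with open points where the adjusted p was 0.05 or more. Gdf15 and Jdp2 lie to the right and Vegfa to the left in both knockouts, while Cth, Fgf21, Got1 and Stc2, of which Fgf21 and Got1 were named after their values were seen, were called on opposite sides of WT. The level of Fgf21 was low, with a mean of 0.890 TPM for WT, 2.37 for Usp22-KOA and 0 for Usp22-KOB.

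Between Usp22-KOA and Usp22-KOB, 10 of the 34 genes were higher in Usp22-KOA and 13 lower (29.4% and 38.2%), against 27.5% and 24.2% of all genes tested, and the median difference was 0.023 beside 0.027 for all genes. Those higher by the most were Asns (1.36 ± 0.12), Slc1a4 (1.14 ± 0.10), Tars (1.02 ± 0.07) and Chac1 (0.85 ± 0.20), with adjusted p from 4.8e-06 (Tars) to 0.00592 (Chac1). Those lower by the most were Vldlr (-1.38 ± 0.14), Slc1a5 (-0.85 ± 0.13), Cebpb (-0.70 ± 0.19), Psat1 (-0.63 ± 0.08) and Cars (-0.60 ± 0.09). Atf4 was among the 13 lower ones. Usp22-KOA, with less Atf4 mRNA, had more Asns, Chac1, Ddit3 and Tars mRNA, and less Psat1, Phgdh, Pycr1 and Slc7a11 mRNA. The lower calls of Slc3a2 and Eprs ended when some libraries were left out: that of Slc3a2 without any of Usp22-KOA 2, Usp22-KOA 3, Usp22-KOB 1 or Usp22-KOB 2 (adjusted p = 0.0585 to 0.079) and that of Eprs without Usp22-KOA 1 (0.0582). The lower call of Slc3a2 also ended with only the groups compared (0.0519). Nupr1 was called higher in Usp22-KOA (0.38 ± 0.10, adjusted p = 0.0122), a call that ended with quantile normalization (0.27, adjusted p = 0.0832). With that normalization the differences of Slc3a2, Aars and Sars were -0.30, 0.20 and 0.23 in place of -0.20 ± 0.06, 0.31 ± 0.05 and 0.34 ± 0.05. With a pseudocount of 5 those of Vldlr, Pycr1 and Chac1 were -0.47, -0.35 and 0.51. Without Usp22-KOA 3 the difference of Phgdh went from -0.41 to -0.27. Atf5, Slc7a5 and Psph were not called between the knockouts (0.0505, 0.0527 and 0.0624) but passed without Usp22-KOA 3 (0.0269, 0.00487 and 0.0417), and Atf5 also without Usp22-KOB 1 (0.0424). Atf5 and Slc7a5 passed as well with a minimum mean of 5 TPM (0.0482 and 0.0492), and Atf5 with a pseudocount of 5 (0.0498). The comparisons of each knockout with WT share the 3 WT samples, so the calls that both show are not independent of each other. Against WT, 6 of the 34 genes rose in both (Atf5, Psph, Slc7a11, Slc7a5, Slc3a2 and Aars), 4 fell in both (Vldlr, Pycr1, Phgdh and Nars), and 2 were called in opposite directions (Atf4 and Tars). 5 were called in neither (Trib3, Mthfd2, Slc7a1, Gars and Lars).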

How the data were processed

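Polyadenylated RNA of 9 samples was quantified by the authors, who deposited 1 table of 24493 genes in TPM. Salmon, DESeq2 and the build mm10 are named in the submitters' processing notes, without roles. Their settings, the annotation and the use of strand were not stated. Each of the 9 columns matched 1 sample by its label. Because TPM values carry no count of reads, depth could not be given, and precision rests on the spread of 3 samples per group.

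From the deposited TPM, log2(TPM + 1) was fitted for the 13843 genes whose mean reached 1 TPM with limma 3.58.1 (R 4.3.3; lmFit, contrasts.fit, eBayes with a trend), with a mean per group over all 9 samples and no block, and tests were 2-sided. The Benjamini-Hochberg adjustment ran over all genes tested. The fit was checked on data with known answers. All 34 genes are named, with the eIF2 kinases and Ppp1r15a, up to 5 genes per other list with the smallest adjusted p in both knockouts and up to 3 between the knockouts. The genes and lists were chosen with earlier results of these data known. Alternatives were pseudocounts of 0.1 and 5, no filter, a mean of 5 TPM, quantile and median-of-ratios scaling, rescaling without the microRNA gene Mir6236, no trend, a replicate block, only the groups compared, both knockouts as 1 group, and each sample left out. Motifs were searched in RefSeq promoter windows (GRCm38.p6), and gene overlaps came from GENCODE M21. Tables and plots used pandas 2.3.3 and matplotlib 3.10.9 under Python 3.11.15. Count models were not used, because the values are not counts.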

Additional observations from a re-analysis of the deposited data

Results flagged for a closer look

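The difference from WT was not the same in the 2 knockouts for 23 of the 34 genes, by the limma test of Usp22-KOA against Usp22-KOB at an adjusted p under 0.05. Of all genes tested, 27.5% were higher and 24.2% lower in this comparison. As log2 differences of Usp22-KOA from Usp22-KOB, the 10 higher genes were Asns (1.36), Slc1a4 (1.14), Tars (1.02), Chac1 (0.85), Ddit3 (0.59), Yars (0.39), Nupr1 (0.38), Sars (0.34), Mars (0.32) and Aars (0.31). The 13 lower genes were Vldlr (-1.38), Slc1a5 (-0.85), Cebpb (-0.70), Psat1 (-0.63), Cars (-0.60), Atf4 (-0.59), Slc7a11 (-0.54), Pycr1 (-0.53), Nars (-0.45), Aldh18a1 (-0.43), Phgdh (-0.41), Eprs (-0.25) and Slc3a2 (-0.20). Each knockout has 3 samples, and no group was large enough to look for a sample far from the rest.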

How the results depend on the processing

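With the 6 knockout samples as 1 group, 7 genes were higher and 3 lower than in WT, in place of 18 and 10. Those 7 and 3 are 20.6% and 8.82%, against 10.4% and 10.9% of all genes in that fit. The genes lower in Usp22-KOB numbered 7, 4 with a replicate block and 3 to 8 with 1 sample left out. Over all genes, 18.4% were lower there in the fit reported, 16.7% with the block and 13.1% to 22.2% with 1 sample left out. The block gave 17 higher and 9 lower genes (50% and 26.5%) for both knockouts, against 25.8% and 22.6% of all genes. For Usp22-KOA it gave 16 and 10 (47.1% and 29.4%), against 29% and 25.9%. For Usp22-KOB it gave 9 higher (26.5%), against 18.3%. Between the knockouts it gave 10 and 13 (29.4% and 38.2%), against 26.1% and 23.9%. The labels state no pairing by sample number. Correlations of same-numbered deviations ran from -0.125 to 0.276, and in no pair of groups did every sample correlate best with its own number. Between the knockouts, each Usp22-KOA sample did correlate best with its own number in Usp22-KOB (0.187, 0.0765 and 0.276). Usp22-KOB 2, however, correlated more with Usp22-KOA 1 (0.104). Whether the samples were handled in numbered sets is not known. In Usp22-KOB the block ended the calls of Pycr1, Nars and Tars (adjusted p = 0.0787, 0.0906 and 0.0511) and added that of Sesn2 (0.0439). The other counts stayed within 1.5 times of their value under each alternative. Over single genes, 2117 alternative values kept direction and call, 105 lost a call, 24 gained one and 24 changed sign. Those that changed sign were not called in the fit reported, nor after the change. With quantile normalization Slc7a1 and Sars in Usp22-KOA were -0.0079 and -0.055, Ddit3 in Usp22-KOB was -0.023, and Shmt2 and Lars between the knockouts were -0.017 and -0.045. With 1 sample left out, Trib3 ranged from -0.0041 to 0.15 and Lars from -0.059 to 0.0034 in both knockouts, Nupr1 from -0.19 to 0.034 and Lars from -0.043 to 0.020 in Usp22-KOA, Ddit3 from -0.071 to 0.079, Trib3 from -0.011 to 0.14, Slc1a4 from -0.10 to 0.062 and Cars from -0.041 to 0.13 in Usp22-KOB, and Trib3 from -0.058 to 0.15, Mthfd2 from -0.093 to 0.12 and Gars from -0.057 to 0.053 between the knockouts. The cause was not tested. Depth is unknown, so what it limits cannot be given.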

Other observations

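Enzymes around asparagine, glutamine and cysteine that are not among the 34 genes were read as well. Of 19 tested enzymes of asparagine, glutamine, glutamate and proline use, 4 rose and 6 fell in Usp22-KOA (21.1% and 31.6%), against 29.4% and 26.9% of all genes tested. In Usp22-KOB 5 rose and 2 fell (26.3% and 10.5%), against 18.7% and 18.4%. Between the knockouts 4 were higher and 9 lower in Usp22-KOA (21.1% and 47.4%), against 27.5% and 24.2%. The genes named next, also those of the following paragraph, were picked from their lists for a small adjusted p in these data. Gls2, a glutaminase, stood at 30.3, 29.0 and 26.6 TPM across WT, 3.11, 2.43 and 2.97 across Usp22-KOA and 14.8, 15.1 and 20.8 across Usp22-KOB, with no overlap between the groups (-2.95 ± 0.13, adjusted p = 3.5e-07 in Usp22-KOA and -0.74 ± 0.13, adjusted p = 0.00284 in Usp22-KOB). Glul, which makes glutamine, fell in both (-0.61 ± 0.05 and -0.16 ± 0.05, adjusted p = 8.7e-06 and 0.0312). Asrgl1, an asparaginase, rose in Usp22-KOA from 0.465 ± 0.138 to 3.87 ± 1.45 TPM (1.70 ± 0.21, adjusted p = 1.4e-04), where Asns also rose, and was not called in Usp22-KOB (0.035 ± 0.21, adjusted p = 0.917). Cth, which makes cysteine from cystathionine, stood at 6.36, 4.67 and 5.19 TPM across WT, 13.2, 11.3 and 20.6 across Usp22-KOA and 2.81, 2.97 and 2.34 across Usp22-KOB. It rose in Usp22-KOA (1.29 ± 0.20, adjusted p = 5.4e-04) and fell in Usp22-KOB (-0.78 ± 0.20, adjusted p = 0.015), the knockout with the most Slc7a11. Cbs, the enzyme before Cth, fell in both (-1.41 ± 0.17, adjusted p = 1.1e-04 and -0.73 ± 0.17, adjusted p = 0.0099).

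Of 22 genes of folate, methionine and glycine metabolism, 9 rose and 6 fell in Usp22-KOA (40.9% and 27.3%), against 29.4% and 26.9% of all genes tested. In Usp22-KOB 5 rose and 5 fell (22.7% each), against 18.7% and 18.4%, which is near the background. Sfxn1, the mitochondrial serine carrier, and Mthfd1l, which releases formate, rose in both (0.69 ± 0.07 and 0.48 ± 0.08 in Usp22-KOA, 0.34 ± 0.07 and 0.49 ± 0.08 in Usp22-KOB). Gldc, of the glycine cleavage system, rose by 0.35 ± 0.09 in Usp22-KOA and by 1.02 ± 0.09 in Usp22-KOB. The highest of limma's adjusted p over these 3 genes in both knockouts was 0.0119. Of 18 tested amino acid transporters outside the 34 genes, 5 rose and 5 fell in Usp22-KOA (27.8% each), near the 29.4% and 26.9% of all genes. In Usp22-KOB 7 rose and 3 fell (38.9% and 16.7%), against 18.7% and 18.4% of all genes, so the share that fell was near the background. Slc36a1, a lysosomal proton-coupled carrier, rose in both (1.01 ± 0.08, adjusted p = 7.1e-06 and 0.73 ± 0.08, adjusted p = 1.9e-04). Slc7a2, a cationic amino acid carrier that macrophages also express, stood at 9.88, 9.86 and 9.40 TPM across WT, 5.21, 5.03 and 1.65 across Usp22-KOA and 23.8, 26.7 and 20.5 across Usp22-KOB. It fell in Usp22-KOA and rose in Usp22-KOB (-1.21 ± 0.29, adjusted p = 0.00583 and 1.20 ± 0.29, adjusted p = 0.011). The macrophage and dendritic cell markers were also highest in Usp22-KOB, at 5404 to 9610 TPM, and their part was not tested.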
